A study of Homo sapiens with 12 samples.

Results

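The keratin genes of HK2 cells were described across 12 RNA-seq libraries. A gene was counted as a keratin where its symbol read KRT, then digits and no more than 1 capital letter, which left out keratin pseudogenes and the keratin-associated proteins of hair. This gave 55 of the 58278 genes, 29 of type I and 26 of type II. HK2 is an established line of human proximal tubular epithelial cells (TECs) that papillomavirus genes immortalized, and all groups are cultures of it. The groups were untreated cells (Ctrl), cells with TNF-α (5 ng/mL, 3 h, TN), and cells given the same TNF-α together with a short-chain fatty acid (SCFA) for 24 h. Propionate was used at 15 mM and butyrate at 3 mM. Cells of PRTN and BUTN had the SCFA first and TNF-α second, those of TNPR and TNBU had them in the reverse order, and each group had 2 biological replicates. The study asked with these groups whether SCFAs change what TNF-α does to TECs. Thapsigargin and JQ1 appear in the treatment field shared by all deposited labels, but the sources named for the single libraries are TNF-α and SCFAs, and these were used. No group had an SCFA without TNF-α, and the labels do not give how long TN cells were cultured beside the SCFA groups. A comparison with TN is therefore one of SCFA, its dose and any difference of time in culture together, which cannot be told apart. For TNPR and TNBU, which had TNF-α first, any difference of time since TNF-α was added is part of it as well.

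Keratins are the intermediate filament proteins of epithelial cells. A filament is built from pairs of an acidic type I and a basic type II keratin, and each kind of epithelium makes its own pairs. Simple epithelia such as the renal tubule make KRT8 and KRT18, with KRT7, KRT19 or KRT20 in some of them, whereas the basal layer of skin, wounded skin and hair have pairs of their own. Filaments are anchored in the membrane by desmosomes, between cells, and by hemidesmosomes, towards the matrix.

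The libraries held between 27269986 and 33851130 expected counts. Levels are given as CPM, the count scaled to a common library size with TMM factors. A call of higher or lower needed a change past 1.5-fold together with limma-voom's adjusted p below 0.05, where Benjamini-Hochberg adjustment ran over all 24342 genes tested. Replicates of TNPR and TNBU stood further apart than those of the other groups: the median difference between replicates over all genes was 0.140 and 0.158 on the log2 scale there and between 0.0828 and 0.104 in the rest. Of 14 markers of the proximal tubule, SLC22A6 was at 0 in all libraries, LRP2 and HNF4A were at 0 in Ctrl and TN, and PAX8 stood at 364 CPM and GGT1 at 221 CPM in Ctrl.

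Of the 55 keratins, 24 had counts enough to be tested. Another 13 were at 0 in all 12 libraries, and 18 had a few counts, at most 10 in a library. The 13 keratins with a mean of at least 1 CPM in at least 1 group were KRT8, KRT18, KRT17, KRT80, KRT19, KRT7, KRT81, KRT10, KRT20, KRT15, KRT86, KRT23 and KRT34, and these are also the 13 with a geometric mean count of at least 1 over Ctrl and TN. The other 11 tested keratins passed the filter only through the SCFA libraries, so their calls are described with their counts and are no further support. In Ctrl libraries 8 keratins reached 1 CPM, in TN libraries 7, and in SCFA libraries 12 or 13.

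**Figure D1:**
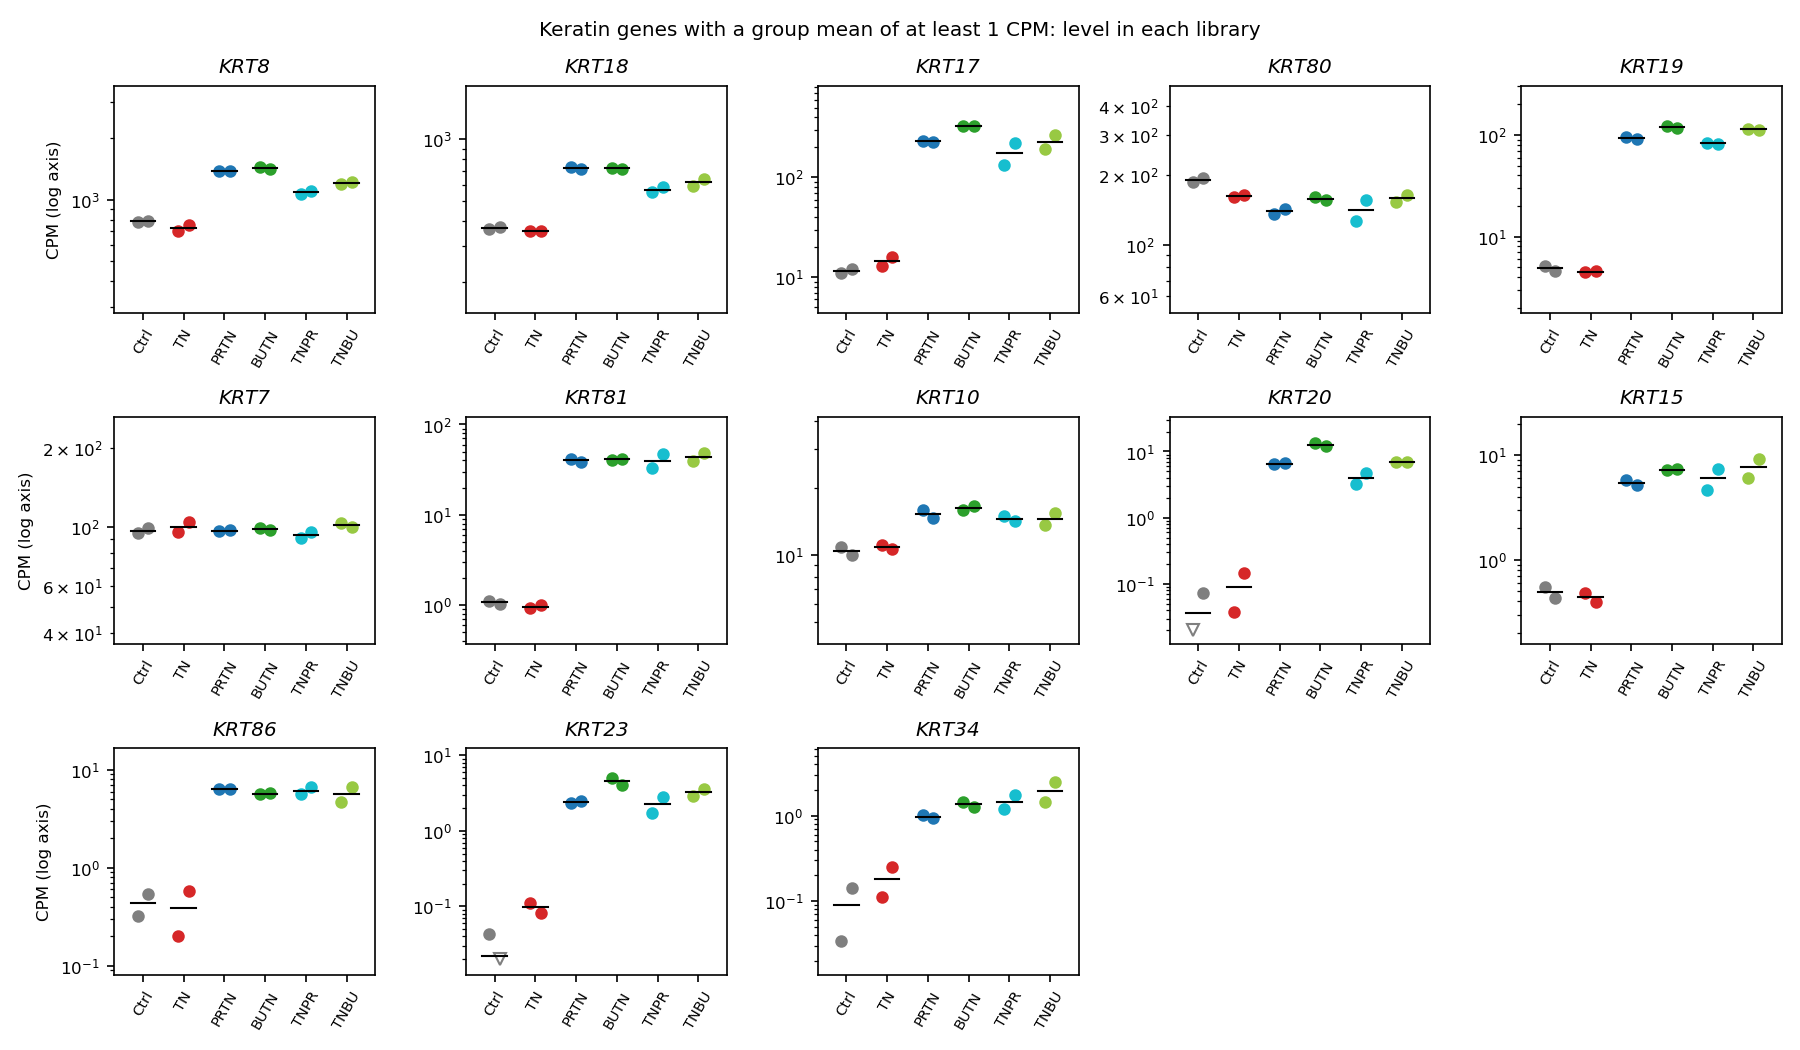
Level of each of the 13 keratins in each of the 12 libraries, in CPM on a log axis, by group. Points are libraries, horizontal lines are group means, and open triangles at the lower edge are libraries with 0 counts. KRT8, KRT18, KRT10, KRT17, KRT19, KRT81, KRT20, KRT15, KRT86, KRT23 and KRT34 stood higher in every SCFA library than in any Ctrl or TN library. KRT7 and KRT80 did not. How many of all genes separate in this way was not counted, so this is a description and is not set beside a share.

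The genes lie in 2 clusters of GRCh38. The cluster on chromosome 12, from 52168996 to 52952906, holds all 26 type II genes and the type I gene KRT18, and that on chromosome 17, from 40654665 to 41624842, holds the other 28 type I genes. Promoters were read from RefSeq (GRCh38.p14), which matched 34 of the 55 keratins and, of the 13, KRT8, KRT10, KRT20 and KRT34. The 250 bases before the start of 3 of them are shown because their genes sit in the same cluster and answered with very different sizes: KRT20 rose from 5 counts summed over TN to between 260 and 846 over an SCFA group, KRT34 rose from a few counts, and KRT10 had the smallest change that was called. Capitals mark the motif TATAAA, searched on both strands.
KRT20, chr17:40885243-40885492, minus strand: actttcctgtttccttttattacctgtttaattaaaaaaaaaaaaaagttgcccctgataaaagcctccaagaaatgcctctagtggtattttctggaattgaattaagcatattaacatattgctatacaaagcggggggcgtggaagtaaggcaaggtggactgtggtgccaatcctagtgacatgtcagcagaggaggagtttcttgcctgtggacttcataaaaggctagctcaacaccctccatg
KRT34, chr17:41382307-41382556, minus strand: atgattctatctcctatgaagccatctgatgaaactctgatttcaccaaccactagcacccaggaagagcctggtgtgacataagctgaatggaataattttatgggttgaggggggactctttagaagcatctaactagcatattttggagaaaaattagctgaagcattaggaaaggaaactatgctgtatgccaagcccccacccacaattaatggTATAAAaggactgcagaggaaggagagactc
KRT10, chr17:40822615-40822864, minus strand: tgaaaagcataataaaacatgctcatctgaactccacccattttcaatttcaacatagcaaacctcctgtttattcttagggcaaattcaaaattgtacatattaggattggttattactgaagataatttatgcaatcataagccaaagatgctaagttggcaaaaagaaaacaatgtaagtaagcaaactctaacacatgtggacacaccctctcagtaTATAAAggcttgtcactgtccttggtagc

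These letters stood in the 250 bases of KRT34 and KRT10 and not in those of KRT20. TATAAA was present in 20 of the 34 keratin promoters, or 58.8%, and in 11.1% of 27305 promoters of the same length. The GC box, GGGCGG, was present in 4 of the 34 keratin promoters against 42.3% of all, the AP-1 motif TGANTCA in 0 against 6.6%, and the NF-κB consensus in 2 against 9.57%. The motifs were counted on both strands.

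No keratin was called after TNF-α alone. Of 24 tested keratins 0 were called higher in TN vs Ctrl and 0 lower, against 0.764% and 0.534% of all genes. At an unadjusted p under 0.05, 1 was higher and 2 were lower by limma-voom, and 1 and 1 by both edgeR and DESeq2, which called 0 as well. The higher one was KRT16, a type I keratin of wounds, with 0 counts in both Ctrl libraries and 2 and 4.01 in TN, a log2 fold change of 2.81 ± 0.73 (SE, adjusted p = 0.0567). The 2 lower ones were KRT80, with a log2 fold change of -0.23 ± 0.08 (SE, adjusted p = 0.162), and KRT8, with -0.11 ± 0.05 (adjusted p = 0.253). KRT17, a keratin that wounded epidermis switches on, stood at 0.32 ± 0.32 on the log2 scale (adjusted p = 0.695), with an interval from -0.38 to 1.02.

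With either SCFA, given before or after TNF-α, many keratins rose and none was called lower. Among the 13 keratins that were present in Ctrl and TN, 10, 11, 9 and 10 were higher in PRTN, BUTN, TNPR and TNBU vs TN, and 0 were lower in each. Of all 21749 genes present to that degree in Ctrl and TN, 20.6%, 19.4%, 21.5% and 21.2% were called upwards. Downwards it was 18.6%, 16.6%, 18.9% and 18.5% of them. On the log2 scale the median change of the 13 was 3.58, 3.96, 3.57 and 3.94, beside -0.03, -0.03, -0.01 and -0.03 for those genes. Counted over all 24 tested keratins, 15, 18, 15 and 19 were higher, where 23.9%, 23.1%, 24.9% and 25% of all 24342 genes were, and 0 were lower, where 16.7%, 14.8%, 16.9% and 16.5% of all genes were. The counts of higher keratins include calls of the 11 that passed the filter only through the SCFA libraries. Those calls are no further support. These 11 had few counts in TN and could hardly be called lower, so the 0 lower is read on the 13 alone. Of the 24 tested keratins 13 were higher in all 4 comparisons, where 18.4% of all genes were. They are not the same 13 as above. KRT12, KRT13, KRT14 and KRT40, which passed the filter only through the SCFA libraries, are among them, and KRT8, KRT7, KRT80 and KRT10 are not. Without TN replicate 1 the count in PRTN vs TN was 10. The 4 comparisons share the TN libraries and are not independent of each other.

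**Figure D2:**
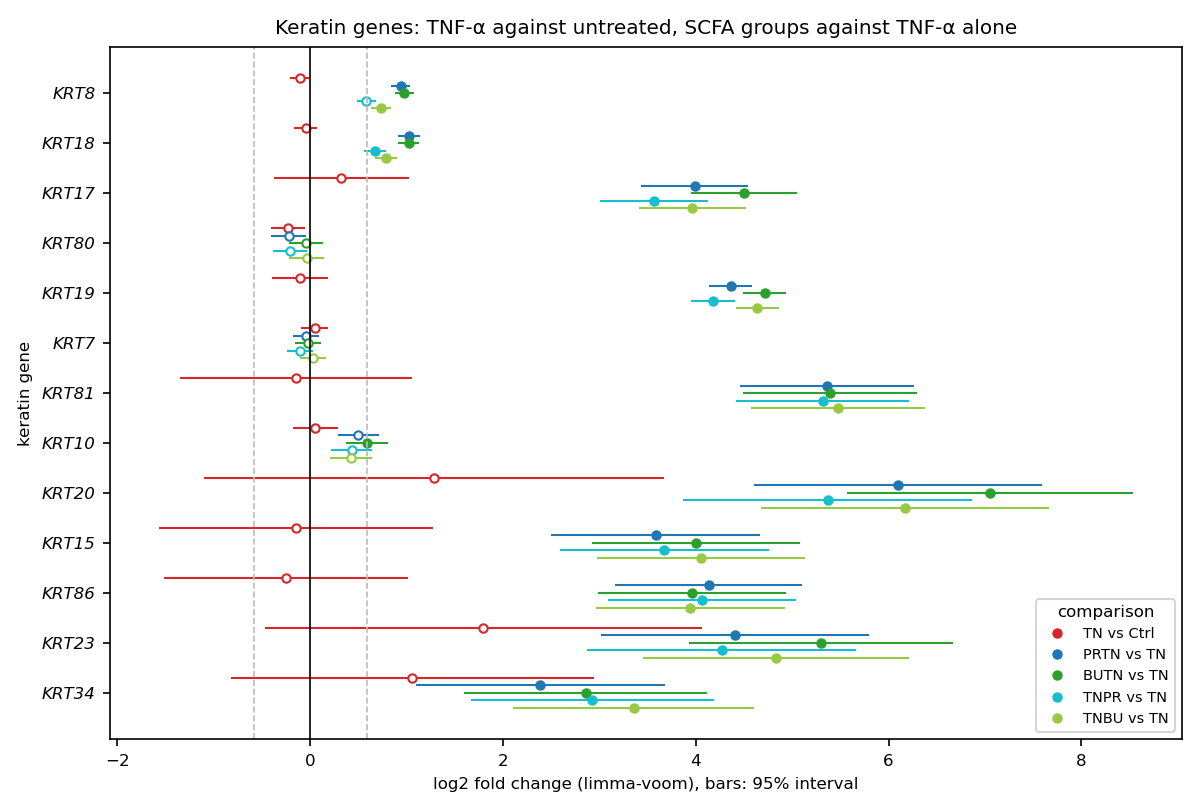
Log2 fold change of the 13 keratins in TN vs Ctrl and in each SCFA group against TN, from limma-voom. Bars are 95% intervals, filled points were called, open points were not, and dashed lines mark the 1.5-fold limit. The changes of the called genes ran from 0.59 for KRT10 to 7.06 for KRT20, while those of KRT7 and KRT80 lay near 0.

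KRT8 and KRT18, the pair that simple epithelia share, were the keratins with the highest levels per length in every library. KRT8 (chromosome 12, 52897187 to 52949954, minus strand, 8 exons in its main transcript) stood at 781 and 785 CPM in Ctrl and 701 and 749 in TN. It stood at 1387 in both PRTN libraries, 1437 and 1413 in BUTN libraries, 1070 and 1102 in TNPR libraries and 1190 and 1221 in TNBU libraries. KRT18 (chromosome 12, 52948871 to 52952906, plus strand, 7 exons) had 364 and 370 CPM in Ctrl, 354 and 356 in TN, 728 and 717 in PRTN libraries and 724 and 716 in BUTN libraries. It had 549 and 582 in TNPR libraries and 592 and 636 in TNBU libraries. The pair rose about 2-fold where the SCFA came before TNF-α, and the libraries of each SCFA group lay above those of Ctrl and TN without overlap. The log2 fold change against TN was 0.94, 0.98, 0.58 and 0.73 for KRT8 in PRTN, BUTN, TNPR and TNBU, and 1.03, 1.02, 0.67 and 0.79 for KRT18, each with an SE of 0.05. All 8 had an adjusted p of at most 3.6e-07, and 7 were called, as KRT8 in TNPR vs TN fell just short of 1.5-fold. It passed that limit without TN replicate 2 (0.60) and with scaling to library size alone (0.76).

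The reads of this pair are not wholly their own. In windows of 50 bases, 39.2% of KRT8 and 35.3% of KRT18 matched another gene, mostly processed pseudogenes, and the 2 genes overlap at their starts on opposite strands, where the strand setting of the counting is not given in the sources used here. The 50 pseudogenes of KRT8 listed in the files held between 1.78% and 2.43% of the counts of KRT8, and the 67 of KRT18 between 0.389% and 0.660%. With pseudogene counts added to their parent, the number of higher keratins was 15, 19, 15 and 19 in PRTN libraries, BUTN, TNPR and TNBU vs TN.

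KRT19, the smallest keratin and a type I keratin of ducts, rose by far more than that pair. It stood at 5.15 and 4.62 CPM in Ctrl and at 4.47 and 4.59 in TN, and then at 95.8 and 91.1 in PRTN libraries, 121 and 118 in BUTN libraries, 82.5 and 82.3 in TNPR libraries and 114 and 112 in TNBU libraries. Every SCFA library was at least 82 CPM and no other library was above 6. KRT19 was 20.5-fold, 26.3-fold, 18.1-fold and 24.9-fold higher than in TN, in the order PRTN, BUTN, TNPR and TNBU (log2 4.36, 4.71, 4.18 and 4.64, each with an SE of 0.10), and the largest of the adjusted p was 1.03e-10. KRT19 lies on chromosome 17 from 41523617 to 41528308, and 1.79% of its windows matched another gene.

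KRT20, a type I keratin of intestinal epithelium and of the umbrella cells of the bladder, was nearly absent without an SCFA. Ctrl libraries had 0 and 2 counts and TN libraries 1 and 4. PRTN had 6.37 and 6.69 CPM, BUTN 13.3 and 12.2, TNPR 3.26 and 4.80 and TNBU 6.83 and 6.87. All SCFA libraries lay above all others, and the BUTN libraries above all other SCFA libraries. The ratio to TN, from summed counts with its 95% counting interval, was 71.4 (30.4 to 221), 139 (59.4 to 429), 43.8 (18.5 to 136) and 75.0 (31.9 to 232) in the same order. The fitted log2 fold changes of 6.10, 7.06, 5.37 and 6.17 had an SE of 0.68 to 0.69 and adjusted p of at most 2.43e-05. These folds rest on the TN counts: without TN replicate 1 they were 5.31, 6.27, 4.58 and 5.39, and without TN replicate 2 they were 6.85, 7.81, 6.11 and 6.93. None of its windows matched another gene.

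KRT7, a type II keratin of ducts and glands, was at about 100 CPM in all groups. The values were 94.8 and 99.5 CPM in Ctrl, 95.9 and 105 in TN, 96.4 and 97.3 in PRTN libraries, 99.2 and 97.3 in BUTN libraries, 90.7 and 96.1 in TNPR libraries and 103 and 101 in TNBU libraries. The groups overlapped with TN throughout. The log2 fold changes against TN were -0.05, -0.03, -0.10 and 0.03, with intervals inside -0.24 and 0.17, and with scaling to library size alone the first 3 were 0.11, 0.13 and 0.07. Of the 5 simple epithelial keratins, then, 4 were called higher in 3 of the SCFA groups and 3 in TNPR. KRT8 fell just short of 1.5-fold in TNPR, and KRT7 was not called in any group.

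Among the keratins of stratified and wounded epithelium, KRT17 had the highest level. It stood at 11 and 12.1 CPM in Ctrl, 13.1 and 15.9 in TN, 234 and 225 in PRTN libraries, 329 and 323 in BUTN libraries, 133 and 220 in TNPR libraries and 191 and 265 in TNBU libraries. The libraries with an SCFA were all above 130 CPM, and the replicates of TNPR and TNBU were wide apart. The fold change against TN was 15.9, 22.6, 11.8 and 15.6 in PRTN libraries, BUTN, TNPR and TNBU (log2 3.99, 4.50, 3.57 and 3.96, with an SE of 0.25 to 0.26), with adjusted p of at most 1.54e-07. KRT17 lies on chromosome 17 from 41619442 to 41624842. Of its windows 17.4% matched another gene, and its 8 pseudogenes held between 0.249% and 0.823% of its counts.

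KRT15, a type I keratin of basal cells in stratified epithelium and of the hair follicle bulge, followed at lower levels. It had 0.549 and 0.430 CPM in Ctrl and 0.484 and 0.395 in TN, against 5.73 and 5.14 in PRTN libraries, 7.26 and 7.30 in BUTN libraries, 4.65 and 7.30 in TNPR libraries and 6.10 and 9.24 in TNBU libraries. Groups with and without an SCFA did not overlap. Its log2 fold changes against TN were 3.58, 4.00, 3.67 and 4.05, with an SE of 0.50 and adjusted p of at most 5.07e-05.

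The type II partners that such keratins have in skin had next to no counts. KRT5, the partner of KRT14 and KRT15 in basal cells, had at most 2 counts in a library, KRT6A and KRT6C at most 1, and KRT6B had 0 throughout. KRT14 itself had 3.08 counts in Ctrl replicate 1, 0 in the other libraries without an SCFA and from 3.56 to 20.1 in SCFA libraries, which gave at least 1.17-fold, 3.51-fold, 3.05-fold and 5.00-fold over TN in the order above, with 3 counts per library as the floor. KRT16, the other type I keratin of wounds, had 0 and 0 counts in Ctrl, 2 and 4.01 in TN and 5.03 to 9.94 in SCFA libraries, with ratios of 1.63 to 2.79 whose counting intervals reached below 1 in all but TNBU.

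KRT81 and KRT86, type II keratins of the hair shaft, rose as well. KRT81 stood at 1.12 and 1.03 CPM in Ctrl, 0.935 and 0.992 in TN, 42.0 and 38.8 in PRTN libraries, 40.7 and 41.6 in BUTN libraries, 32.7 and 46.9 in TNPR libraries and 39.2 and 48.4 in TNBU libraries. The lowest SCFA library was thus far above the highest of the others. Its fold change against TN was 41.1, 41.9, 39.8 and 44.5 (log2 5.36, 5.39, 5.32 and 5.47, each with an SE of 0.41), with adjusted p of at most 3.4e-07. KRT86 stood at 0.324 and 0.539 CPM in Ctrl, 0.201 and 0.581 in TN, 6.37 and 6.44 in PRTN libraries, 5.63 and 5.74 in BUTN libraries, 5.61 and 6.68 in TNPR libraries and 4.72 and 6.61 in TNBU libraries. Its log2 fold changes against TN were 4.13, 3.96, 4.06 and 3.94, with an SE of 0.45. They were 3.39, 3.22, 3.33 and 3.22 without TN replicate 1 and 4.84, 4.67, 4.77 and 4.66 without TN replicate 2, and stayed called. The 2 genes cannot be fully separated: KRT81 (chromosome 12, 52285913 to 52291534, minus strand) lies inside the span of KRT86 (52249300 to 52309163, plus strand), 44.6% of its windows matched another gene and 38.4% matched KRT86.

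KRT34, a type I hair keratin, had 1 and 4 counts in Ctrl and 3 and 7 in TN. It had 1.01 and 0.930 CPM in PRTN libraries, 1.45 and 1.26 in BUTN libraries, 1.18 and 1.72 in TNPR libraries and 1.46 and 2.47 in TNBU libraries, all above the 4 libraries without an SCFA. The ratio to TN was 5.32 (2.74 to 11.7), 7.40 (3.84 to 16.0), 7.87 (4.12 to 17) and 10.8 (5.68 to 23.2). The call in PRTN vs TN had an adjusted p of 0.00407 and of 0.051 without TN replicate 1. Of the 17 hair shaft keratins 7 were tested. KRT81, KRT86 and KRT34 were higher in all 4 comparisons, while KRT31, KRT33B, KRT39 and KRT40 passed the filter only through the SCFA libraries and had at most 11 counts in any library. Hair is also made of keratin-associated proteins, and of 110 such genes 70 were at 0 in all libraries and 5 reached 10 counts in at least 1.

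KRT10 and KRT80 answered little, and KRT23 answered strongly. KRT10, a type I keratin of differentiating epidermis, stood at 10.9 and 10.0 CPM in Ctrl, 11.1 and 10.6 in TN, 16.0 and 14.6 in PRTN libraries, 16.0 and 16.6 in BUTN libraries, 14.9 and 14.2 in TNPR libraries and 13.6 and 15.4 in TNBU libraries. SCFA libraries did not overlap with the others. The log2 fold changes against TN were 0.50, 0.59, 0.43 and 0.42, with an SE of 0.10 and adjusted p of at most 0.00332, and the value in BUTN alone passed 1.5-fold. That call was lost without TN replicate 2 (0.54), BUTN replicate 2 (0.56), TNPR replicate 1 (0.57) or TNBU replicate 1 (0.57), and with no filter (0.56). KRT1, the partner of KRT10 in epidermis, was not tested, having 10 counts in Ctrl replicate 1 and 0 in the other 11 libraries.

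KRT80, a type II keratin found in many epithelia, was not called in TN vs Ctrl or in any SCFA group against TN. It had 188 and 195 CPM in Ctrl, 161 and 165 in TN, 136 and 143 in PRTN libraries, 161 and 156 in BUTN libraries, 127 and 156 in TNPR libraries and 154 and 164 in TNBU libraries. The log2 fold changes against TN were -0.22 ± 0.08 (SE) in PRTN and -0.21 ± 0.08 in TNPR, with adjusted p of 0.0348 and 0.0436 at under 1.5-fold, and -0.04 ± 0.08 in both BUTN and TNBU, which were 0.11 and 0.16 with scaling to library size alone. KRT23, a type I keratin of glands and of some carcinomas, had 1.27 and 0 counts in Ctrl and 3 and 2.31 in TN. It had 2.37 and 2.47 CPM in PRTN libraries, 4.99 and 4.06 in BUTN libraries, 1.73 and 2.82 in TNPR libraries and 2.93 and 3.58 in TNBU libraries. The ratio to TN was 24.9 (11.1 to 82.6), 46.4 (20.9 to 153), 23.2 (10.3 to 76.8) and 33.6 (15.1 to 112).

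The remaining tested keratins KRT13, KRT12, KRT40, KRT31, KRT39, KRT79, KRT78, KRT33B and KRT9 had at most 24 counts in a library. KRT12, a keratin of the cornea, had 18 to 34.2 counts summed over a pair of SCFA replicates and 1 over TN, and KRT13, a keratin of mucosa, had 10.9 to 33.6 and 0. KRT78 and KRT79 were not called in any SCFA group against TN, with 1 to 7 counts in each SCFA library. None of the 9 keratins of the inner root sheath and companion layer had over 1 count, and 6 of them were at 0 throughout.

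**Figure D3:**
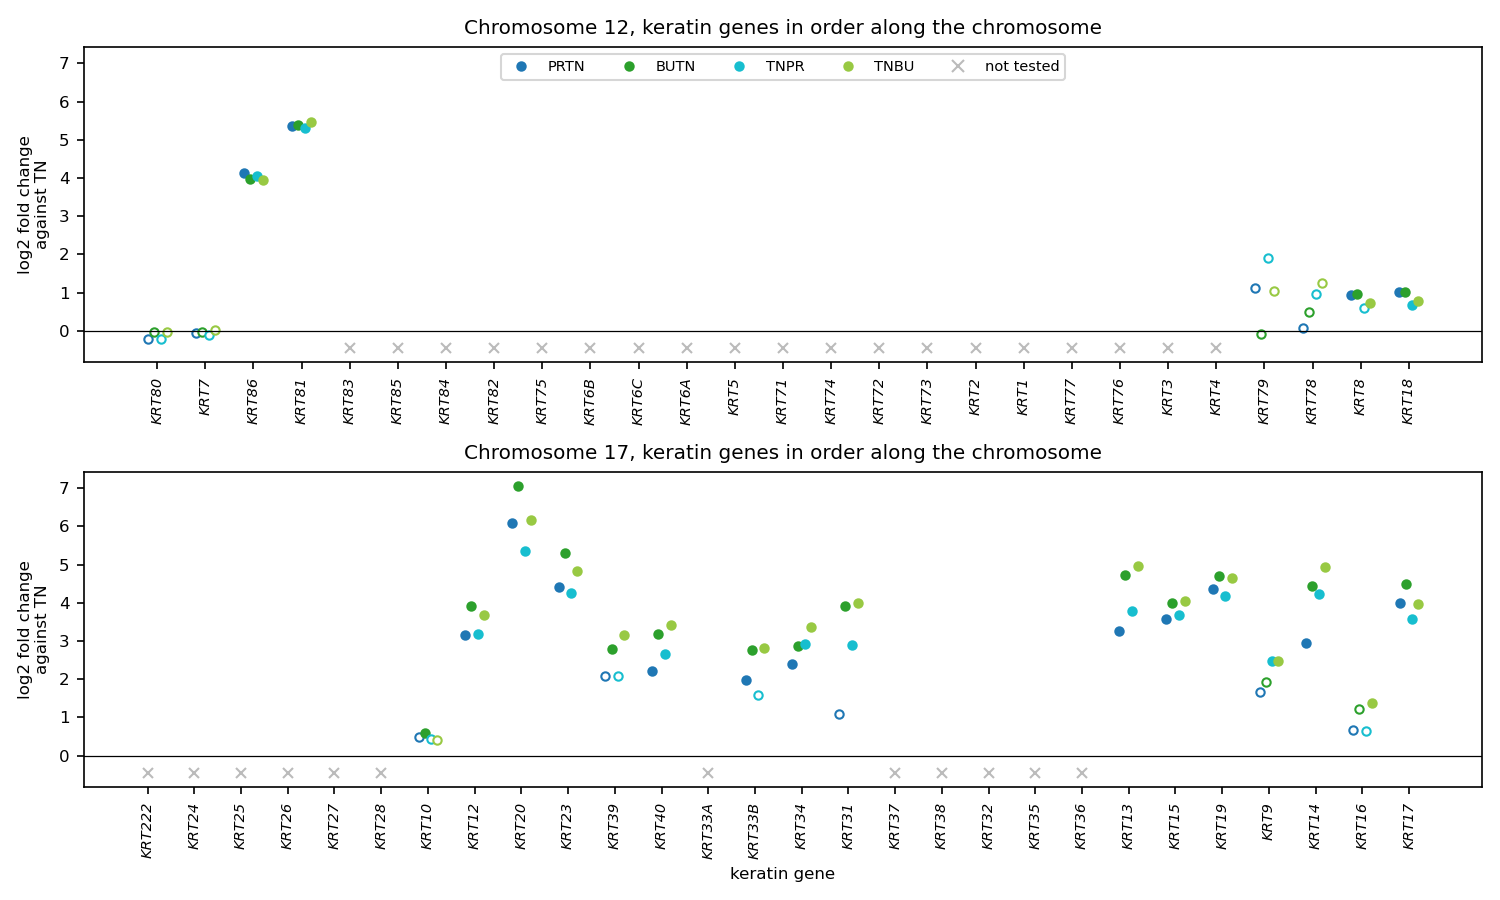
Log2 fold change against TN for the 27 keratin genes of chromosome 12 and the 28 of chromosome 17, in their order along each chromosome. Filled points were called, open points were not, and grey crosses are genes with too few counts to test. On chromosome 12 the tested genes sit at both ends of the cluster, and on chromosome 17 they lie between KRT10 and KRT17.

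Along the chromosomes the tested genes were unevenly spread. Of the 26 type II keratins 7 were tested and of the 29 type I keratins 17, and 5 and 8 of these had a mean of at least 1 CPM in a group. On chromosome 12 the 4 tested genes at one end were KRT80, KRT7, KRT86 and KRT81, the 4 at the other end KRT79, KRT78, KRT8 and KRT18, and the 19 between them had too few counts.

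**Figure D4:**
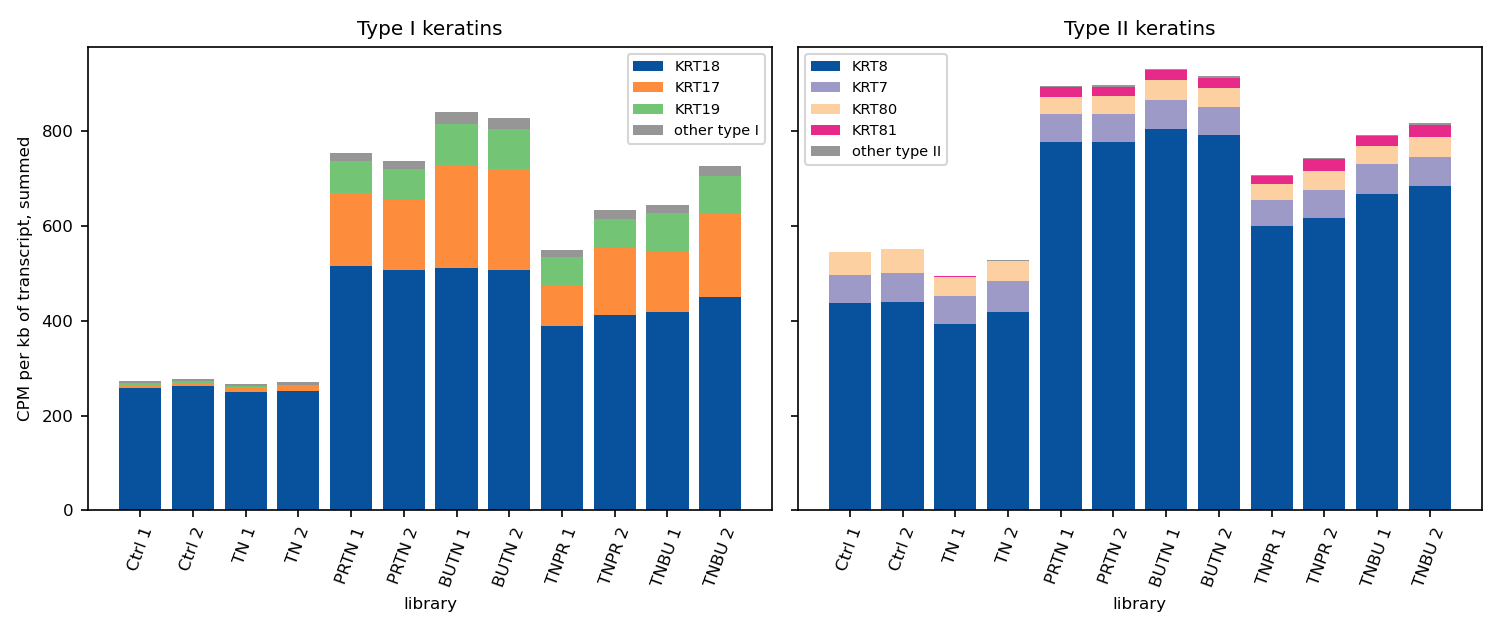
CPM per kb of the main transcript, summed over type I keratins (left) and type II keratins (right) in each library. Colours are genes. The type I sum rose from 268 to 278 without an SCFA to 549 to 840 with one, through KRT18 and through KRT17 and KRT19, whereas KRT8 made up most of the type II sum in all libraries.

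The make-up of the keratin pool changed with its size. Keratin genes took between 0.124% and 0.141% of all counts in Ctrl and TN libraries and between 0.219% and 0.303% in SCFA libraries. Per kb of transcript, type I keratins summed to 276 ± 2.87 CPM per kb in Ctrl (SD, n = 2), 270 ± 2.28 in TN, and 746 ± 12.7, 834 ± 8.96, 591 ± 59.3 and 686 ± 58.6 in PRTN, BUTN, TNPR and TNBU. In the same order, from Ctrl to TNBU, type II keratins summed to 549 ± 4.65, 511 ± 23.6, 897 ± 0.386, 924 ± 10.8, 726 ± 26 and 805 ± 17.2 CPM per kb. The ratio of type II to type I was between 1.84 and 1.99 in the 4 libraries without an SCFA and between 1.11 and 1.29 in the 8 with one, so the groups did not overlap.

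Within type I, KRT18 held 92.9% to 94.1% of the sum without an SCFA and 61.0% to 70.7% with one. KRT17 held 2.65% to 3.86% and then 16.0% to 25.8%, and KRT19 1.20% to 1.35% and then 8.89% to 12.8%. Within type II, KRT8 held 79.5% to 80.3% and then 83.0% to 86.7%, KRT7 held 10.7% to 12.2% and then 6.53% to 8.03%, and KRT81 held 0.0963% to 0.106% and then 2.24% to 3.27%. KRT8 stood at 1.57 to 1.70 times KRT18 without an SCFA and at 1.5 to 1.59 times with one. These shares are descriptions of mRNA, and no filament was measured.

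Few keratins were called between the times of SCFA addition. In TNPR vs PRTN 0 keratins were called, against 0.16% of all genes, with 1 higher and 5 lower at an unadjusted p under 0.05, and 4 lower in each of edgeR and DESeq2, which called 0 as well. In TNBU vs BUTN 1 was called, against 0.267%. That was KRT20, which was lower in TNBU by 0.89 ± 0.15 (SE) on the log2 scale (adjusted p = 0.0186), with both TNBU libraries below both BUTN libraries. KRT20 differed by -0.73 ± 0.18 in TNPR vs PRTN (adjusted p = 0.170). The call for butyrate was lost in edgeR, with the 4 libraries alone, with no filter, and without BUTN replicate 1, BUTN replicate 2 or TNBU replicate 2.

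KRT8 and KRT18 had small differences that were past the adjusted p and below the fold limit. KRT8 was lower in TNPR vs PRTN by 0.35 ± 0.04 (adjusted p = 0.00697) and in TNBU vs BUTN by 0.24 ± 0.04 (adjusted p = 0.0333), and KRT18 was lower in TNPR vs PRTN by 0.36 ± 0.05 (adjusted p = 0.0107). In TNBU vs BUTN, KRT18 stood at -0.23 ± 0.05 (adjusted p = 0.0577). The libraries did not overlap in any of these 4. The difference between the timing effects of propionate and of butyrate was called for 0 keratins and 0% of all genes, with 0 keratins at an unadjusted p under 0.05 by limma-voom, edgeR and DESeq2.

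Propionate and butyrate were given at different doses, 15 mM and 3 mM, so a difference between their groups is one of compound and dose together. In PRTN vs BUTN 1 keratin was called, against 0.168% of all genes, and 8 were lower and 0 higher at an unadjusted p under 0.05. KRT20 was the called gene, at -0.96 ± 0.14 (adjusted p = 0.0189), and the call was lost in edgeR (adjusted p = 0.0509) and on leaving out any 1 of the 4 libraries compared, while DESeq2 gave this gene no adjusted p. KRT23 stood at -0.89 ± 0.21 (adjusted p = 0.0852) and was called without TNPR replicate 1 or TNPR replicate 2 and with the 4 libraries alone. In TNPR vs TNBU 0 were called, against 0.00822%, and 6 were lower at an unadjusted p under 0.05, with 4 in edgeR and 5 in DESeq2, which called 0 as well. KRT19 was lower with propionate at both times, by 0.35 ± 0.05 in PRTN vs BUTN (adjusted p = 0.0209) and by 0.46 ± 0.06 in TNPR vs TNBU (adjusted p = 0.0208), below the fold limit. KRT81 differed by -0.03 in PRTN vs BUTN, with an interval from -0.32 to 0.27, and by -0.16 in TNPR vs TNBU, from -0.46 to 0.14.

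**Figure D5:**
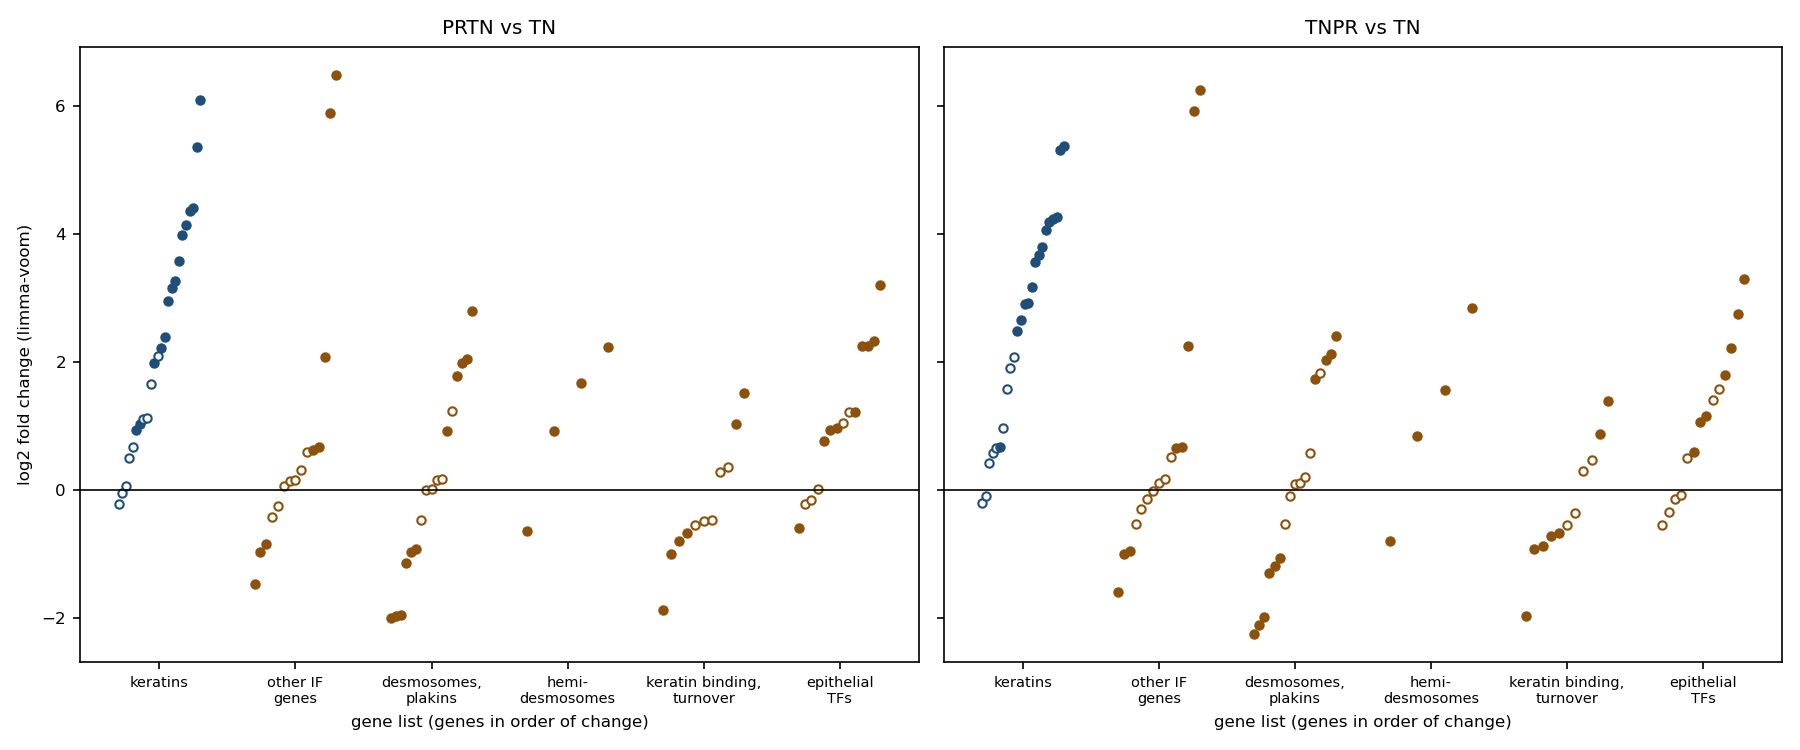
Log2 fold change in PRTN vs TN (left) and TNPR vs TN (right) of the tested keratins and of 5 other lists of genes. IF stands for intermediate filament and TFs for transcription factors. Each point is a gene, in order of change within its list, filled where called. Keratins were called only upwards, whereas desmosome genes were called both ways.

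The genes that anchor keratin filaments were called both ways. The lists that follow are read beside the shares over all tested genes, of which 23.1% to 25% were higher and 14.8% to 16.9% lower in an SCFA group vs TN. Of 19 desmosome and plakin genes 17 were tested. Of these 5, 5, 4 and 5 were higher and 6, 6, 6 and 6 lower in PRTN, BUTN, TNPR and TNBU vs TN. The median log2 fold change lay between -0.02 and 0.09. The higher ones are near the share over all genes, and the lower ones are above it. The higher ones include a desmosomal cadherin that stood at 0.0179 CPM in Ctrl and in TN. It passed the filter through the SCFA libraries, so its calls are no further support. DSP, the plakin that binds keratin filaments to desmosomes, fell from 343 CPM in TN to 155, 176, 151 and 176 CPM in the 4 SCFA groups (log2 -1.14, -0.96, -1.19 and -0.98). The cadherins DSG2, DSC2 and DSC3 fell too, DSC3 by 1.71 to 1.99 and DSC2 by 1.48 to 2.11 on the log2 scale, as did PKP3 and EVPL. PKP2, a plakophilin of simple epithelia and heart, rose from 14 CPM to between 39.3 and 48.1, and PPL, periplakin, rose from 5.32 CPM to between 21.8 and 22.3. PPL stood at 10.6 CPM in Ctrl and was called lower in TN vs Ctrl (limma-voom, log2 -0.996, adjusted p = 0.000406). Part of its rise against TN is thus measured from that lower level. PLEC and DST were not called.

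Of the hemidesmosome genes, ITGA6 and ITGB4, the chains of the integrin that holds keratin at the matrix side, rose in all 4 comparisons. ITGA6 stood at 16.2 CPM in TN and between 47.7 and 54.1 with an SCFA (log2 1.56 to 1.74), and ITGB4 at 16.9 CPM and then between 30.1 and 41.9 (0.84 to 1.31). CD151, a tetraspanin bound to them, was lower in 3 of the 4. Over the 4 genes of this list 3 rose in each comparison, a list too short to set beside a share.

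Other intermediate filament genes were called at shares near those over all genes. VIM, the vimentin of mesenchymal and cultured cells, was not called, with log2 fold changes from -0.29 to 0.19 at group means of 1376 to 1921 CPM. DES, the desmin of muscle, rose from 0.453 CPM in TN to 33.1 to 51.3 CPM (log2 6.25 to 6.88), PRPH, a peripherin of neurons, from 0.0572 to 4.32 to 5.75 CPM, and NES, nestin, by 0.66 to 0.87 on the log2 scale. NEFH fell by 0.92 to 1.00 and LMNB1, lamin B, by 1.16 to 1.59, and LMNA was not called. Of 15 tested genes of the list 5, 4, 5 and 5 were higher and 3, 2, 3 and 3 lower.

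Among genes that bind or turn over keratins, 2 of 11 were higher in each comparison, below the share over all genes, and 4, 4, 5 and 5 were lower, above it. SFN, a 14-3-3 protein of epithelia, rose from 12.1 CPM in TN to between 31.8 and 36.9. FAM83H, which places a kinase on keratin filaments, fell by 1.45 to 1.97 on the log2 scale, TCHP, trichoplein, by 0.64 to 1.00, and PNN by 0.62 to 0.89. HSPB1 was not called. Of 20 cornified envelope genes 8 were tested, and 6, 7, 4 and 5 of these were higher and 1, 0, 1 and 0 lower. Apart from TGM1, CNFN and TGM5, the tested genes had group means of at most 0.0738 CPM in Ctrl and TN. They passed the filter through the SCFA libraries, so their calls are no further support. The median log2 fold change of the list, 2.11, 2.64, 1.64 and 2.04, rests in part on them. TGM1, CNFN and TGM5, those with the highest levels, stayed under 3 CPM in every group mean. Among 14 tested epithelial transcription factors 8, 9, 7 and 8 were higher, above the share over all genes, and 1, 1, 0 and 0 lower. ELF3 rose by 0.96 to 1.23, KLF5 by 0.87 to 1.15, GRHL1 by 2.19 to 2.25 and KLF4 by 0.59 to 0.97 on the log2 scale, and CEBPB was not called.

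Markers of the tubule, of fibroblasts and of endothelium moved with the SCFA groups as well. The epithelial and leukocyte sums with an SCFA overlapped those of Ctrl. The 14 markers of the proximal tubule summed to 1372 to 1792 CPM in Ctrl and TN and to 269 to 353 CPM with an SCFA, where CDH6, PAX8, GGT1 and CDH16 were lower and AQP1, CUBN, LRP2, ANPEP and HNF4A higher. LRP2, ANPEP and HNF4A had group means of at most 0.0515 CPM in Ctrl and TN. They passed the filter through the SCFA libraries, so their calls are no further support. Of 6 epithelial markers, EPCAM was lower and CDH1 and OCLN higher in all 4 comparisons. CLDN1, with the highest level of the 6, was higher in TN vs Ctrl (log2 0.85). It was lower in TNPR and TNBU vs TN (log2 -0.70 and -0.72) and not called in PRTN or BUTN. The 6 markers summed to 546 to 559 CPM in Ctrl, 862 to 881 in TN and 521 to 701 with an SCFA. The 8 fibroblast markers summed to 52.9 to 60.02 CPM and then 205 to 257, mostly COL1A1 and LUM, the 5 endothelial ones to 0.143 to 0.287 and then 2.29 to 3.87, and the 6 leukocyte ones to 30.4 to 36.3 and then 27.5 to 52.4, mostly CD68. Their part in the keratin values was not tested, and in these bulk libraries fewer cells of a kind and less RNA per cell cannot be told apart.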

How the data were processed

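The 12 HK2 libraries of stranded mRNA form 6 groups of 2 by their own labels. The authors deposited expected counts (gene-level estimated counts, not scaled), for which the submitters' processing notes name FastQC 0.11.5, STAR 2.6.1a, RSEM and GRCh38, and the strand setting of RSEM is not given in the sources used here.

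Counts were not rounded. A gene entered the test at a geometric mean of 1 or more across all libraries, computed on counts raised by 1 and then lowered by 1. The filter dropped 33936 genes. TMM factors (edgeR 4.0.16) ran from 0.913 to 1.06. limma 3.58.1 in R 4.3.3 (voom, a mean for each of 6 groups, Benjamini-Hochberg adjustment over all kept genes) gave the calls, with edgeR and DESeq2 1.42.0 on rounded counts, other scalings and filters, pseudogenes added to their parent, a replicate block and leaving out each library as alternatives. limma-voom, edgeR and DESeq2 were tested on simulated data. p-values measure the spread between 2 cultures of 1 line. Levels are CPM, with a floor of 3 counts per library. Intervals of ratios are exact 95% counting intervals and cover counting error only. Genes named were those at 1 CPM or more in a group mean, and of each partner list the 3 with the highest mean and those called in all 4 comparisons at 5 CPM or more. In the comparisons of time and of compound, single keratins are given at an unadjusted p under 0.05, and KRT81 was added there after its values were seen. Members, roles and lists were chosen with earlier results of these data known. Positions and exons come from GENCODE release 44, in which all 55 keratins matched, and promoters from RefSeq. The values of 1 gene that the naming rule would allow are not reported here.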

Additional observations from a re-analysis of the deposited data

Results flagged for a closer look

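KRT20 is listed because its level differed between the times at which butyrate was given, by the test of that difference. It stood at 13.3 and 12.2 CPM in BUTN and at 6.83 and 6.87 CPM in TNBU, a difference in TNBU vs BUTN of -0.89 ± 0.15 (SE) on the log2 scale (limma-voom, adjusted p = 0.0186), and both TNBU libraries were below both BUTN libraries. The 2 groups differ in the order of butyrate and TNF-α and so in the time since TNF-α was added, which cannot be told apart. The same difference for propionate was -0.73 ± 0.18 (adjusted p = 0.170), and the 2 differences were not shown to differ, with 0.16 ± 0.23 between them (adjusted p = 1). With 2 libraries a group, single libraries that stand apart could not be looked for.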

How the results depend on the processing

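Across edgeR, DESeq2, both other scalings, other filters, the groups compared alone, pseudogenes added to their parent, the replicate block and each left-out library, 0 keratins were called lower in any SCFA group against TN. The count of higher keratins moved by over 1.5 times with a literal geometric mean, which any 0 removes and which left 11 keratins tested: it was 8, 9, 7 and 8 in PRTN, BUTN, TNPR and TNBU vs TN. Without any filter 1 keratin was higher in TN vs Ctrl. The counts of called keratins were least stable between SCFA groups. In TNBU vs BUTN the count was 0 in edgeR, with no filter, with the literal geometric mean and with the groups alone. In PRTN vs BUTN it was 0 in edgeR, in DESeq2 and with the literal geometric mean, and 2 with the groups alone; DESeq2 gave KRT20 no adjusted p there. Leaving out 1 library gave 10 to 15 higher keratins in PRTN, 15 to 18 in BUTN, 12 to 15 in TNPR and 15 to 19 in TNBU vs TN, 0 to 1 called in TNBU vs BUTN and 0 to 2 in PRTN vs BUTN. With the replicate block the counts were 16, 18, 16 and 19 against TN and 1 and 1 in TNBU vs BUTN and PRTN vs BUTN. The pairing was not used, since deviations of same-numbered libraries had correlations between -0.0791 and 0.240 over 15 group pairs, of which 1 passed 0.1, and the block changed no call of a named keratin.

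Scaling to library size alone moved the median of all genes against TN from 0.09, 0.08, 0.12 and 0.09 to 0.24, 0.23, 0.29 and 0.29 on the log2 scale in PRTN, BUTN, TNPR and TNBU. It turned the sign of log2 values near 0. KRT7 then stood at 0.11 in PRTN, 0.13 in BUTN and 0.072 in TNPR vs TN and at -0.011 in TN vs Ctrl, KRT80 at 0.11 in BUTN and 0.16 in TNBU vs TN, and KRT10 at -0.0047 in TN vs Ctrl, while KRT10 was called in PRTN (0.65), TNPR (0.60) and TNBU vs TN (0.62). With no filter KRT7 stood at -0.00098 in TNBU vs TN. Leaving out 1 library turned the sign for KRT7 in TN vs Ctrl (-0.017 to 0.11), BUTN (-0.12 to 0.013) and TNBU vs TN (-0.051 to 0.075), and in TN vs Ctrl for KRT10 (-0.0087 to 0.11), KRT15 (-0.32 to 0.021) and KRT86 (-0.98 to 0.46). None of the values whose sign turned was called. Causes were not tested. With 2 libraries a group and 3 counts as the floor, keratins under about 0.1 CPM in TN have folds that counting error alone leaves wide.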

Other observations

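A few counts of epidermal keratins lay in Ctrl replicate 1. It held 10 counts of KRT1, 3 of KRT9, 3.08 of KRT14, 2 of KRT5 and 1 of KRT2, whereas Ctrl replicate 2 held 0 of each of KRT1, KRT9 and KRT14. KRT1 was at 0 in the other 11 libraries.

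KRT7-AS, the antisense gene of KRT7, held between 37.7 and 75.0 counts in each library beside 2575 to 3368 of KRT7. Among keratins without a test, 12 had counts in SCFA libraries and 0 in Ctrl and TN, none of them above 6 in a library.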
